A study of Mus musculus with 30 samples.

Results

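Macrophages polarized with interleukin-4 (IL-4), the M2 state, were compared between 2 genotypes: WT and TRα1PV, a mutant of thyroid hormone receptor α1 (TRα1). The libraries were chosen by the labels, which assign 10 of the 30 libraries of the series to M2, 5 of them WT and 5 TRα1PV, and the comparison was made across all genes. In TRα1PV M2 macrophages 963 genes (6.14%) were higher and 1092 (6.96%) were lower than in WT, of 15686 tested. The thyroid hormone targets Klf9 and Hr fell, as did Ighm, Vegfa and 6 of 22 metalloproteinases and their inhibitors. So did 11 of 36 genes of Toll-like receptor and NF-kB signalling, several of them inhibitors or atypical IκB proteins. F13a1 and 13 of 36 genes of sterol and fatty acid synthesis rose. The widely used IL-4 markers Arg1, Retnla and Chil3 did not pass the test.

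Thyroid hormone (T3) acts through nuclear receptors encoded by Thra and Thrb, which sit on DNA with a retinoid X receptor (RXR) partner. Without hormone the receptor holds corepressors at its target genes, and with hormone it exchanges them for coactivators. The PV mutation alters the end of the receptor that binds hormone, so that the mutant fails to respond to T3 and, being dominant negative, interferes with the normal receptors. IL-4 acts on macrophages through its receptor and the transcription factor STAT6, and turns on genes of alternative activation such as Arg1, Retnla, Chil3 and Mrc1. Macrophages respond to thyroid hormone, and TRα1 is the main receptor form reported in them.

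The cells were macrophages grown from bone marrow for 7 days in medium with 10% fetal bovine serum and 15 or 20% medium conditioned by L929 fibroblasts, which supplies the growth factor that macrophages need. The 10 M2 libraries came from cells given IL-4 at 20 ng/mL. The M0 libraries, 5 per genotype, came from unstimulated cells, and the M1 libraries, 5 per genotype, from cells given lipopolysaccharide and interferon-γ. The labels name no added thyroid hormone and say only that the mutant mice were transgenic. As background, the published TRα1PV allele lies in the germ line at Thra, so marrow cells carried it before culture. The sources used here do not give the zygosity, sex, age or number of the mice, so the p-values measure the spread between these samples, which are labelled as biological replicates.

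Between 23015952 and 50238693 reads per M2 library were counted in genes, and a gene's level is given in CPM (counts relative to the library's total after scaling by trimmed means, TMM). Fold changes are log2 values of TRα1PV over WT ± a standard error (SE) from edgeR's quasi-likelihood test, with 5 libraries per group. A gene was called higher or lower when its p, adjusted by the Benjamini-Hochberg method over all 15686 genes, was under 0.05, and every adjusted p below comes from that test. Genotype was the main axis among the M2 libraries. Principal component 1 took up 34.4% of the variance, with the TRα1PV libraries between 13.6 and 27.1 and the WT libraries between -32.2 and -8.75. WT replicate 4 lay nearest to the TRα1PV libraries and stood apart on the second component, at -32.9. The mitochondrial share of reads was 2.70 to 4.06% in TRα1PV and 1.80 to 3.83% in WT (exact permutation test, p = 0.0873, adjusted p = 0.131), and of the 6 library measures compared none passed adjustment. Macrophage markers were present at high levels in both genotypes, with Csf1r, the receptor for the macrophage growth factor, at 4058 ± 170 CPM (SD, n = 5) in TRα1PV against 4115 ± 233 CPM (SD, n = 5) in WT.

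Thra, the gene that carries the mutation, was higher in TRα1PV. Its level was 46.3, 43.3, 43.6, 41.7 and 42.1 CPM in TRα1PV replicates 1 to 5 and 18.1, 15.6, 16.4, 17.3 and 16.6 CPM in WT. The groups did not overlap, and the log2 fold change was 1.37 ± 0.10 (adjusted p = 2.24e-11), a 2.58-fold difference. The counts do not separate the mutant from the normal transcript, nor TRα1 from the other products of Thra, so they do not show the share of mutant receptor. Nr1d1, a clock repressor whose gene overlaps Thra on the opposite strand, had a log2 fold change of 0.29 ± 0.15 (adjusted p = 0.207), and whether reads were counted by strand is not stated in the labels.

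Thrb, the other receptor gene, was low. It had 4.26, 5.95, 4.83, 4.64 and 4.65 CPM in TRα1PV and 3.67, 6.21, 3.56, 5.43 and 5.82 CPM in WT, ranges that overlap, and its log2 fold change was -0.03 ± 0.19 (adjusted p = 0.944). Of 27 listed receptors, deiodinases, transporters and cofactors of thyroid hormone, 20 were tested, and 3 were higher and 0 lower. Besides Thra these were Rxra (0.36 ± 0.08, adjusted p = 0.00194), which encodes an RXR partner of the receptor, and Slc7a8 (0.30 ± 0.07, adjusted p = 0.0062), an amino acid transporter that also carries thyroid hormones. Without WT replicate 4 the number higher was 6. The corepressor gene Ncor1 had a log2 fold change of 0.03 ± 0.07 and did not pass the test. Dio2, which encodes the deiodinase that makes T3, had 4.97 to 21.2 CPM in TRα1PV and 3.69 to 7.94 CPM in WT and did not pass the test either (adjusted p = 0.207).

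Of all genes tested in M2, 13.1% were called, 6.14% as higher and 6.96% as lower. Counts over gene lists in M2 are to be read against these shares. Most differences were small. Of the 2055 called genes, 1355 differed by less than 1.5-fold and 387 by 1.5- to 2-fold. At least 2-fold, 136 genes were higher (0.867% of those tested) and 177 were lower (1.13%), and at least 4-fold, 14 were higher and 61 lower. At an adjusted p under 0.01, 918 genes (5.85%) were called. All 14 genes that were at least 4-fold higher had a mean log2 CPM under 0, whereas 14 of the 61 lower ones lay at or above it, so the largest changes among well-measured genes were decreases. The median log2 fold change over all tested genes was -0.01. In 1443 of the called genes the 5 TRα1PV values did not overlap the 5 WT values. Over all tested genes 927 (5.91%) were higher and 1234 (7.87%) lower without overlap. The count of called genes moved with the libraries used, from 1270 without WT replicate 5 and 1353 without WT replicate 1 to 2709 without WT replicate 4. It was 4008 when the M2 libraries were fitted alone and 4483 with the replicate block in that fit, and 988 of the 2055 calls held under all 18 alternative settings.

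**Figure D1:**
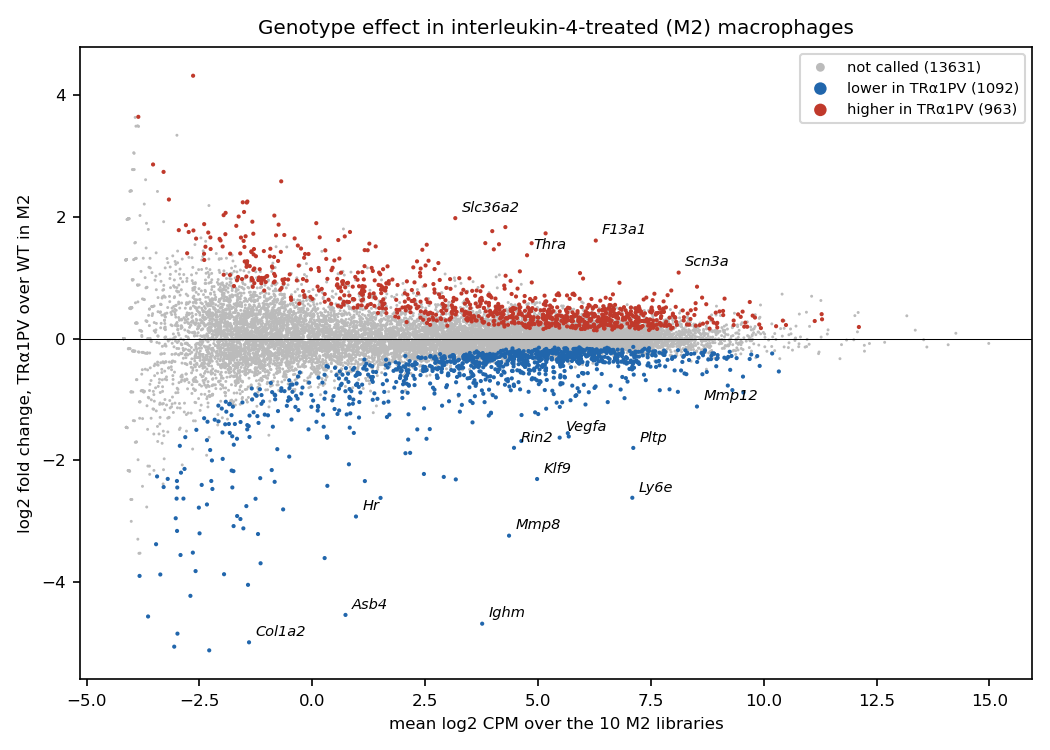
Log2 fold change of TRα1PV over WT in M2 (y axis) against the mean log2 CPM over the 10 M2 libraries (x axis, a log scale), 1 point per tested gene. The 963 genes called higher are red, the 1092 called lower are blue and the other 13631 are grey; the named genes Ighm, Mmp8, Klf9 and Ly6e lie far below the bulk at well-measured levels.

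Known T3-responsive genes were described first, as the closest readout of the receptor. Klf9, a Krüppel-like transcription factor that the hormone-bound receptor turns on directly in many tissues, had 14.6, 17.3, 14.1, 13.8 and 11.5 CPM in TRα1PV and 66.4, 74.3, 69.6, 82 and 59.96 CPM in WT. Every TRα1PV library was thus far below every WT library, and the log2 fold change was -2.31 ± 0.12 (adjusted p = 2.93e-14), a 4.95-fold lower level. Hr, which encodes a corepressor of thyroid hormone receptors that is itself induced by the hormone, had 1.47, 0.393, 0.77, 0.663 and 0.346 CPM in TRα1PV and 7.12, 5.72, 4.59, 4.98 and 5.1 CPM in WT. It fell by 2.92 on the log2 scale (SE 0.27, adjusted p = 3.17e-09), with no overlap and with TRα1PV replicate 1 the highest of its group.

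Of 26 listed T3-responsive genes, 19 were tested, and 6 were lower and 0 higher, with a median log2 fold change of -0.10. Apart from Klf9 and Hr these were Bcl3 (-0.85 ± 0.09), an NF-kB cofactor, Slc2a1 (-0.43 ± 0.10), the glucose transporter GLUT1, Gpd2 (-0.32 ± 0.08), the mitochondrial glycerol-3-phosphate dehydrogenase, and Cpt1a (-0.31 ± 0.07), which brings fatty acids into mitochondria. The other 13 did not pass, among them Me1 (-0.12 ± 0.13), the malic enzyme, and Fasn (0.21 ± 0.11), fatty acid synthase, which T3 regulates in liver. The number lower was 6 or 7 whichever single library was left out. Dbp, a clock output gene outside that list, fell from 18.9 ± 0.719 to 7.24 ± 0.96 CPM (SD, n = 5), whereas of 17 tested circadian genes only Dbp was lower and 1 was higher, Ciart (0.52 ± 0.13).

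The Klf9 promoter and that of Rin2, 1 of the 4 genes with the smallest p in M2, are shown because the receptor binds AGGTCA, alone or as pairs. They come from RefSeq, build GRCm38.p6, and run from 250 bases before to 50 bases after the start of the gene. The Klf9 window lies at chr19:23140976-23141275 and that of Rin2 at chr2:145785866-145786165, both on the plus strand. Capitals mark TGACCT, which is AGGTCA on the other strand.
Klf9: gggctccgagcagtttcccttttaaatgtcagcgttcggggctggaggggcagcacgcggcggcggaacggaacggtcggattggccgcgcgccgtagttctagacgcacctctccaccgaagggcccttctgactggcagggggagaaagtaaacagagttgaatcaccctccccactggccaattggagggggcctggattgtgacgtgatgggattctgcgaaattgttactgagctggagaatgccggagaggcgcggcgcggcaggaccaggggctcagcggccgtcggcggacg
Rin2: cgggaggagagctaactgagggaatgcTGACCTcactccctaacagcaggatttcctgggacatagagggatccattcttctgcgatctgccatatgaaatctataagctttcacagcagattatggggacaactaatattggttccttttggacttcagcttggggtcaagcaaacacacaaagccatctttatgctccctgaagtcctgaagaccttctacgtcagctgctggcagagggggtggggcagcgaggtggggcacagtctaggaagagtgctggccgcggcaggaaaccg
AGGTCA was searched on both strands and was found once in the Rin2 window, starting 223 bases before the start of the gene, and not in the Klf9 window. Of the 10 genes with the smallest p, 7 had a promoter to search, and only Rin2 had AGGTCA in a window. AGGTCA lay in 16.3% of 32851 promoters in the table, in 15.0% of the 10441 tested genes with a promoter, in 15.6% of 820 genes lower in TRα1PV and in 14.7% of 675 higher ones. The direct repeat of AGGTCA with any 4 bases between its copies was in 0.0152% of all promoters and in 0 of those tested genes. TTC and GAA with any 4 bases between them, the spacing that STAT6 binds, were in 6.81% of tested, 6.83% of lower and 6.81% of higher genes. The shares differed little between lower, higher and all tested genes, and these letters do not show whether a factor bound here or elsewhere.

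**Figure D2:**
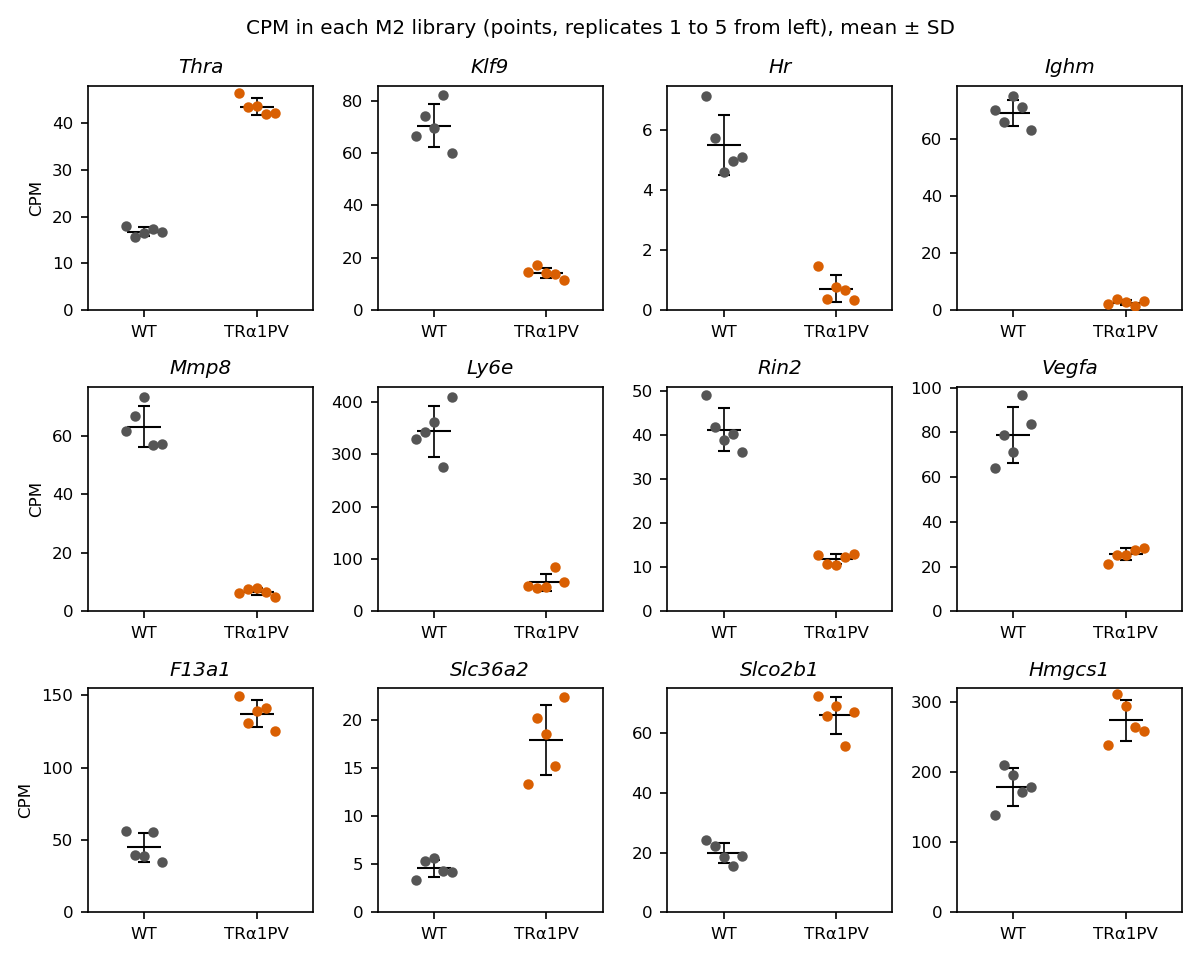
CPM (y axis, linear, from 0) of 12 genes in the 10 M2 libraries, grey for WT and orange for TRα1PV; points are libraries, replicates 1 to 5 from left, and bars are the mean ± SD of 5. The groups do not overlap in any panel, for example 11.5 to 17.3 against 59.96 to 82 CPM for Klf9.

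Ighm, which encodes the heavy chain of immunoglobulin M, had the smallest p of all genes. It had 2.1, 3.84, 2.81, 1.71 and 3.14 CPM in TRα1PV and 70.2, 66, 74.8, 71.1 and 63.2 CPM in WT. The level was 25.7-fold lower in TRα1PV (log2 fold change -4.68 ± 0.17, adjusted p = 2.96e-18) and even in each group. The polyA counts do not tell a rearranged from an unrearranged transcript of this locus. Asb4, a subunit of ubiquitin ligases, was next in size among genes whose mean log2 CPM was 0 or more, with 0.464, 0.253, 0.444, 0.227 and 0.247 CPM against 7.59, 8.68, 6.7, 8.19 and 6.36 CPM (-4.54 ± 0.24, adjusted p = 2.33e-14), again without overlap.

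Of 11 tested genes of B-cell-type signalling, which macrophages also use, 4 were lower, 0 higher and 7 did not pass, and the median log2 fold change was -0.01. Apart from Ighm the lower ones were Blnk (-1.12 ± 0.08), an adaptor of SYK, Cd72 (-0.71 ± 0.13), an inhibitory receptor, and Syk itself (-0.31 ± 0.06), the tyrosine kinase of immune receptors. Blnk had 26.8 to 34.3 CPM in TRα1PV and 62.5 to 69.3 CPM in WT. The 4 calls held without any single library. The Src-family kinase Fgr fell as well, from 20.3 ± 4.24 to 4.08 ± 0.559 CPM (SD, n = 5; -2.31 ± 0.16), and so did Prkce, a protein kinase C (-1.49 ± 0.10), Traf3ip2, the adaptor of interleukin-17 receptors (-1.88 ± 0.13), and Cuedc1 (-2.34 ± 0.15).

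Rin2, an exchange factor for the endocytic GTPase RAB5, had 12.8, 10.7, 10.6, 12.3 and 13.1 CPM in TRα1PV and 49, 41.9, 39, 40.3 and 36.3 CPM in WT. The groups lay well apart, with a log2 fold change of -1.79 ± 0.10 (adjusted p = 2.93e-14). Ly6e, a surface protein of the LY6 family, had 48.8, 45.1, 46.5, 84.2 and 55.3 CPM against 328, 342, 362, 275 and 409 CPM (-2.61 ± 0.20). TRα1PV replicate 4 was the highest of its group and still below every WT library. Gdf3, a growth factor of the TGF-β family, fell by 3.60 (SE 0.38), and Ccnd2, which encodes cyclin D2, by 2.62 (SE 0.20) on the log2 scale, from 6.88 ± 0.875 to 1.13 ± 0.0623 CPM (SD, n = 5).

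Cyclin D2 was the strongest change among cell cycle genes. Of 47 tested, 7 were lower and 0 higher (6.96% and 6.14% of all genes), with a median log2 fold change of -0.23. The lower ones included E2f2 (-0.70 ± 0.13) and the replication factor Mcm3 (-0.40 ± 0.10). With the replicate number as a block 12 were lower. The count fell to 3 without any 1 of TRα1PV replicates 2 to 5 or WT replicates 1 and 2, to 4 without WT replicate 3 or 5, and rose to 12 without WT replicate 4. With the M2 libraries alone 11 were lower, and 24 with the block in those libraries.

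Matrix metalloproteinases cut extracellular matrix. Of 22 tested members of the list with their inhibitors, 6 were lower, 0 higher and 16 did not pass (5 to 7 lower when single libraries were left out), with a median of -0.14 and 10 positive values. With the block in the M2 libraries alone 2 were higher. Mmp8 had 6.27, 7.52, 8.11, 6.56 and 5.09 CPM in TRα1PV and 61.5, 66.9, 73.3, 56.8 and 57.3 CPM in WT. It was 9.42-fold lower (log2 fold change -3.24 ± 0.22, adjusted p = 6.14e-12), without overlap. Mmp27, its neighbour in the same gene cluster, fell by 2.27 (SE 0.17), Mmp9 by 2.06 (SE 0.37) and Mmp14 by 1.04 (SE 0.24). Mmp12, macrophage elastase, had 304, 209, 246, 324 and 186 CPM against 667, 533, 595, 520 and 432 CPM (-1.12 ± 0.19, adjusted p = 0.000126), so its highest TRα1PV library was below its lowest WT library.

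Several genes made by fibroblasts were lower at the same time. Of 12 tested stromal markers 7 were lower and 1 higher, with a median log2 fold change of -2.64, and the count lower was 7 or 8 without single libraries. They were rare in both genotypes: the summed level of the list was 4.88 to 8.17 CPM in TRα1PV and 6.99 to 20.1 CPM in WT. Sparc, a matrix protein, had 0.0494 to 0.168 CPM against 0.496 to 2.24 CPM (-3.69 ± 0.49), and Bgn, a matrix proteoglycan, fell by 4.04 (SE 0.64). Col1a2 had 0 reads in 3 of 5 TRα1PV libraries. In M0 10 of the 12 stromal markers were lower and 0 higher (14% and 12% of all genes), with a median of -3.43. In bulk RNA, fewer cells of a type and less RNA per cell cannot be told apart. The part that a small number of stromal cells plays in the metalloproteinase result was not tested.

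The increases were smaller than the decreases. Slc36a2, a proton-coupled amino acid transporter, rose most among genes whose mean log2 CPM was 0 or more. It had 13.3, 20.2, 18.5, 15.3 and 22.4 CPM in TRα1PV and 3.4, 5.31, 5.63, 4.35 and 4.19 CPM in WT, a 3.94-fold difference without overlap (1.98 ± 0.14, adjusted p = 2.57e-11). Prickle2, a planar polarity protein, had 1.72, 2.05, 3.17, 1.08 and 2.87 CPM against 0.828, 0.378, 0.207, 1.08 and 0.349 CPM (1.90 ± 0.38, adjusted p = 0.00103), and TRα1PV replicate 4 and WT replicate 4 all but met. F13a1, the A subunit of coagulation factor XIII and a gene that IL-4 induces in human monocytes, had 149, 131, 139, 141 and 125 CPM against 56.1, 39.4, 38.8, 55.6 and 34.6 CPM (1.61 ± 0.11, adjusted p = 1.48e-11). Its lowest TRα1PV library was more than 2-fold above its highest WT library. In these cells the WT mean of F13a1 was 461 CPM in M0 and 44.9 CPM in M2, so it was lower with IL-4. That difference between states was not tested. F13a1 was also higher in TRα1PV in M0, with a log2 fold change of 1.17.

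Slco2b1, an organic anion transporter, rose from 19.9 ± 3.35 to 65.8 ± 6.18 CPM (SD, n = 5; 1.73 ± 0.13), and Cldn11, a tight-junction claudin, from 8.69 ± 1.59 to 29.6 ± 6.14 CPM (SD, n = 5; 1.76 ± 0.16). Tln2, which links integrins to actin (1.75 ± 0.26), Spata13, an exchange factor for RAC and CDC42 (1.56 ± 0.19), Mgll, which releases fatty acids from monoacylglycerol (1.55 ± 0.26), Abca9, an ABC transporter (1.47 ± 0.14), and Bmpr1a, a receptor for bone morphogenetic proteins (1.46 ± 0.29), were higher too. Each of these kept its call under all 18 alternatives.

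Alternative activation was uneven. Of 35 tested marker genes 7 were higher and 7 lower (6.14% and 6.96% of all genes), with a median log2 fold change of 0.02. Arg1, which breaks down arginine, had 456, 503, 321, 340 and 375 CPM in TRα1PV and 328, 498, 308, 454 and 429 CPM in WT, overlapping ranges with a log2 fold change of -0.02 ± 0.19 (adjusted p = 0.969). The secreted proteins Retnla (0.14 ± 0.25, adjusted p = 0.749) and Chil3 (-0.01 ± 0.25, adjusted p = 0.981) and the lectin Mgl2 (-0.17 ± 0.12, adjusted p = 0.349) did not pass either. These SEs come from 1 fit to all 30 libraries, the M0 and M1 libraries included. Within M2 Retnla had 11052 ± 1104 CPM in TRα1PV and 10041 ± 1005 CPM in WT (SD, n = 5). With SEs of this size, small changes of these markers were not detectable in that fit. None of these markers passed under any of the 18 alternatives, fits of the M2 libraries alone among them.

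Among the markers that rose, Slc7a2, which imports arginine, had 483, 581, 474, 490 and 450 CPM against 232, 286, 278, 300 and 277 CPM (0.85 ± 0.11, adjusted p = 2.33e-06), with no overlap. Mrc1, the mannose receptor, had 2733 to 3029 CPM against 2048 to 2247 CPM without overlap (0.40 ± 0.14, adjusted p = 0.0483); its adjusted p was 0.000119 to 0.11 over the alternatives, and the call was lost with RLE size factors and without any single one of the 10 libraries. Ccl7 (0.92 ± 0.22) and Ccl8 (1.24 ± 0.27), chemokines that draw in monocytes, rose with F13a1. Among those that fell, Tgm2, a transglutaminase listed as an M2 marker, had 60.7, 58.1, 54.3, 83.1 and 71.3 CPM against 117, 129, 132, 140 and 157 CPM (-1.04 ± 0.11, adjusted p = 9.26e-08). Rnase2a (-0.55 ± 0.13) and Matk (-0.63 ± 0.11) fell less. In these cells Tgm2 was not highest in M2, with WT means of 187 CPM in M0, 135 CPM in M2 and 1064 CPM in M1. Its log2 fold change in M0 was -1.14. The number of higher markers was 11 with the block in the M2 libraries alone and 4 without TRα1PV replicate 1 or 2 or WT replicate 3, and that of lower ones 4 without TRα1PV replicate 3 or 4 or WT replicate 2 or 5.

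Genes of the IL-4 receptor and STAT6 pathway leaned lower: of 22 tested, 8 were lower and 1 higher, with a median of -0.13. Cish, a feedback inhibitor of cytokine signalling, had 54, 48.3, 42.7, 36.3 and 42.1 CPM against 80.5, 82.3, 82.1, 74.8 and 88.8 CPM (-0.87 ± 0.12, adjusted p = 9.31e-06). Socs3, another feedback inhibitor (-1.25 ± 0.20), Kdm6b, a histone demethylase reported to be induced by IL-4 (-0.47 ± 0.07), Ppard, a lipid-sensing receptor (-0.39 ± 0.08), and Stat6 itself (-0.22 ± 0.05) fell as well. For Cish, Socs3, Kdm6b, Ppard and Stat6 the groups did not overlap. The WT mean of Kdm6b was 46.5 CPM in M0 and 47.6 CPM in M2. In M0, without IL-4, 10 of the 22 genes were lower and 4 higher (14% and 12% of all genes), with a median of -0.09. There the log2 fold change was -1.84 for Cish, -1.08 for Kdm6b and -0.49 for Socs3. The difference between M2 and M0 was called for 4 of the 22, against 2.16% of all genes. Il4ra, the receptor chain, did not pass in M2 (0.23 ± 0.13, adjusted p = 0.223). The number lower was 5 without WT replicate 1, 2, 3 or 5.

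Interferon-stimulated genes, which type I interferon turns on for antiviral defence, had a genotype effect that differed between M0 and M2. Of 45 tested type I interferon-stimulated genes, 1 was higher and 2 were lower in M2, with a median log2 fold change of 0.13, whereas in M0 44 were higher and 0 lower, with a median of 1.24 (12% of all tested genes were higher in M0). The difference of the genotype effect between M2 and M0 was itself tested, in the same fit. It was called for 34 of the 45, against 2.16% of all genes. Mx1, an antiviral GTPase, had 10.9, 12.4, 15.2, 21.1 and 12.2 CPM in TRα1PV M2 and 12.8, 12.7, 12.9, 13.3 and 13.5 CPM in WT M2, ranges that overlap (0.14 ± 0.19, adjusted p = 0.637). In M0 its level was 154 ± 47.9 CPM in TRα1PV against 38.4 ± 8.64 CPM in WT (SD, n = 5; log2 fold change 2.00). Its effect was thus 1.86 lower in M2 than in M0 (SE 0.26, adjusted p = 0.00013).

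TRα1PV replicate 4 was the highest TRα1PV M2 library for Mx1, for Isg15, a ubiquitin-like protein (8.11 against 3.00 to 5.57 CPM in the other 4), and for Irf7, the interferon regulator (39.2 against 16.5 to 27.1 CPM). Without it, 4 of the list were lower and 0 higher. Without TRα1PV replicate 1, 3 were higher and 0 lower, and without the others in turn 0 were higher and 0 to 2 lower. With the M2 libraries alone 7 were higher and 3 lower, with the block in those libraries 8 and 4, and with the block in all libraries 0 and 1. Interferon-γ-induced GTPases and regulators showed the same pattern. In M2 3 of 27 were higher and 5 lower (3 lower without TRα1PV replicate 4), in M0 20 were higher and 0 lower, and for 15 of 27 the difference was called. Ifi47, 1 of these GTPases, had a log2 fold change of 0.09 ± 0.12 in M2 and of 1.49 in M0, a difference of -1.40 (adjusted p = 4.9e-05). Members of the Ifit, Gbp and Oas families are near-identical copies, so their counts may be split between copies.

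**Figure D3:**
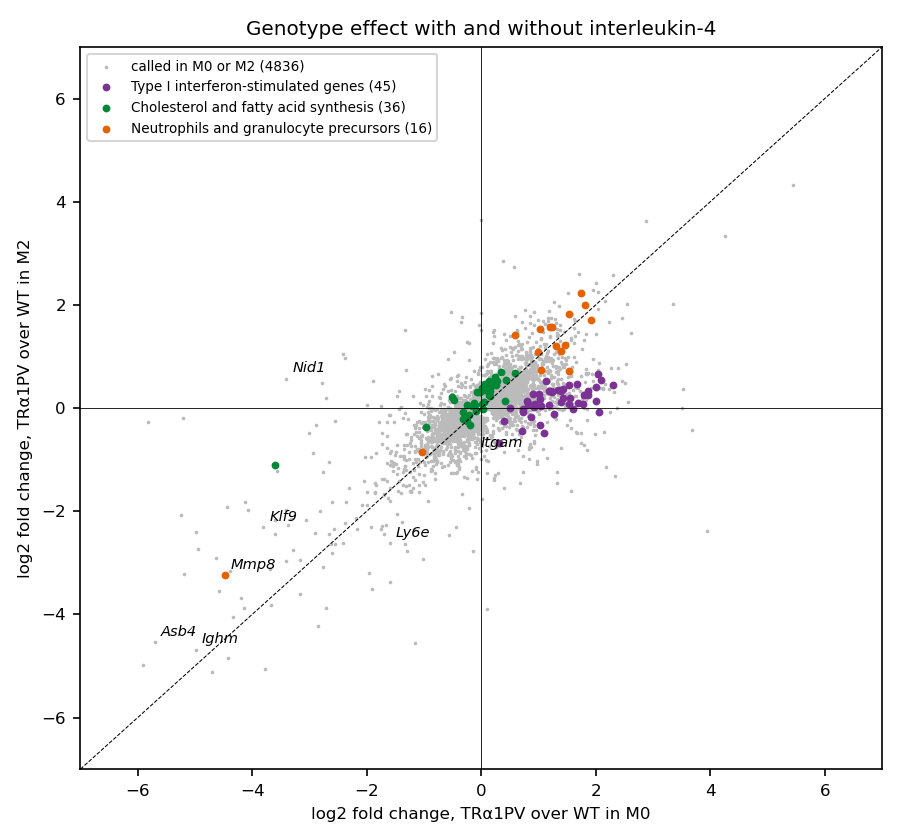
Log2 fold change of TRα1PV over WT in M2 (y axis) against that in M0 (x axis) for the 4836 genes called in either state (grey), with members of 3 lists in colour and the dashed line where both are equal. Interferon-stimulated genes (purple, median 1.24 in M0 and 0.13 in M2) lie right of that line, and Ighm, Asb4, Mmp8 and Klf9 lie low in both states.

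Of 36 tested genes of Toll-like receptor (TLR) and NF-kB signalling, 11 were lower and 1 higher (6.96% and 6.14% of all genes). The median was -0.12, and 9 to 13 were lower without single libraries. With the M2 libraries alone 15 were lower and 4 higher, and with the block in them 16 and 7. Cd14, the lipopolysaccharide co-receptor, had 33.7, 29.2, 26.8, 28.2 and 30.7 CPM against 52.7, 53.3, 56.3, 56.7 and 60.4 CPM, with no overlap (-0.91 ± 0.19, adjusted p = 0.00148). Inhibitors and atypical IκB proteins formed most of the rest: Bcl3 (above), Nfkbie (-0.76 ± 0.13), Nfkbid (-0.63 ± 0.12), Nfkbiz (-0.54 ± 0.14), Nfkbia (-0.33 ± 0.08) and Tnfaip3 (-0.35 ± 0.07), beside the kinase Irak2 (-0.45 ± 0.08) and the subunit Nfkb1 (-0.25 ± 0.06). Tlr5, the flagellin receptor, was the gene that rose, from 5.04 ± 0.518 to 9.81 ± 0.356 CPM (SD, n = 5; 0.96 ± 0.12).

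Of 29 classical activation genes 6 were lower and 1 higher (median -0.27), against 6.96% and 6.14% of all genes. Acod1, which makes itaconate, had 14.5, 30.1, 24.7, 20.9 and 17.9 CPM against 28.1, 57.7, 47.6, 56 and 65.4 CPM, with TRα1PV replicate 2 above WT replicate 1 (-1.24 ± 0.23, adjusted p = 0.000408). Cd86, a costimulatory ligand, was the one that rose (0.39 ± 0.10). Without WT replicate 5 the number lower was 2, and without TRα1PV replicate 1 or WT replicate 4 it was 3. Of 13 tested genes of MHC class II presentation 6 were lower and 1 higher, with a median of -0.43, but 2 were lower without WT replicate 1. The class II chain H2-Ab1 (-1.26 ± 0.29, adjusted p = 0.00362) and Ciita (-1.03 ± 0.24, adjusted p = 0.00414), the coactivator that drives class II genes, kept their calls in all 18 alternatives. H2-Ab1 had 20.5, 17.3, 19.5, 9.93 and 16.3 CPM against 59.7, 44.5, 39.4, 25.7 and 29.2 CPM, without overlap.

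Adhesion molecules were among the lower genes. Of 23 integrins and adhesion genes 7 were lower and 3 higher (6.96% and 6.14% of all genes). The median was -0.17 (5 to 7 lower without single libraries, and 7 higher with the block in the M2 libraries alone). Itgam, the CD11b chain of complement receptor 3, had 58.1, 57.5, 53.9, 48.2 and 41.1 CPM against 106, 95.3, 103, 96.4 and 75.8 CPM, with no overlap (-0.88 ± 0.11, adjusted p = 2.41e-06). Its effect in M0 was -0.11, and the difference of -0.77 was called (adjusted p = 0.0054). Icam1, a ligand of those integrins (-1.01 ± 0.11), Itgb7 (-1.05 ± 0.21), Itgax, the CD11c chain (-0.87 ± 0.19), and Itgal (-0.69 ± 0.11) were lower too. Pecam1 (0.56 ± 0.13) was among the higher ones.

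Receptors for the uptake of particles and dying cells moved in both directions. Of 20 tested scavenger and efferocytosis genes, 4 were higher and 3 lower, with a median of 0.01. Colec12, a scavenger receptor with a collectin domain, had 84.2, 83.5, 94.5, 107 and 83.6 CPM against 47.8, 37.9, 41.2, 56.8 and 44.8 CPM (0.99 ± 0.10, adjusted p = 4.32e-08), without overlap. Stab2 (0.73 ± 0.12) and Stab1 (0.66 ± 0.13), the stabilins, and Gas6, the ligand of AXL and MERTK (0.35 ± 0.09), rose with it. Cd5l, a secreted scavenger protein, had 24.9, 26.4, 27.4, 34.5 and 35.5 CPM against 103, 76.5, 74.7, 84.7 and 97.7 CPM, also without overlap (-1.55 ± 0.14, adjusted p = 2.33e-09). The receptor kinase Axl (-0.96 ± 0.15) and Cxcl16 (-0.75 ± 0.07), a chemokine that also binds oxidized lipoprotein, were the other members that fell. All 7 kept their calls in all 18 alternatives.

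Of 5 Fcγ receptor genes 3 were higher, with a median of 0.30, among them Fcgr4 (0.55 ± 0.08) and Fcgr3 (0.30 ± 0.07). Of 18 complement genes 4 were lower and 1 higher (6.96% and 6.14% of all genes). Cfp, properdin, fell by 0.62 (SE 0.12). Of 15 C-type lectin receptors 4 were lower and 2 higher (0 or 1 higher without single libraries), with Clec12a at 29.6 ± 2.22 CPM in TRα1PV against 61.5 ± 6.84 CPM in WT (SD, n = 5; -1.05 ± 0.11). Of 12 CC chemokines 5 were higher and 2 lower (6.14% and 6.96% of all genes). Ccl12 rose by 1.45 (SE 0.26), from 1.33 ± 0.223 to 3.63 ± 0.687 CPM (SD, n = 5), and the abundant Ccl6 fell by 0.54 (SE 0.12). The number of higher chemokines was 3 without TRα1PV replicate 2, 3 or 5 or WT replicate 1, 3, 4 or 5. Cxcl14 fell by 2.42 (SE 0.24), at levels under 4 CPM.

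**Figure D4:**
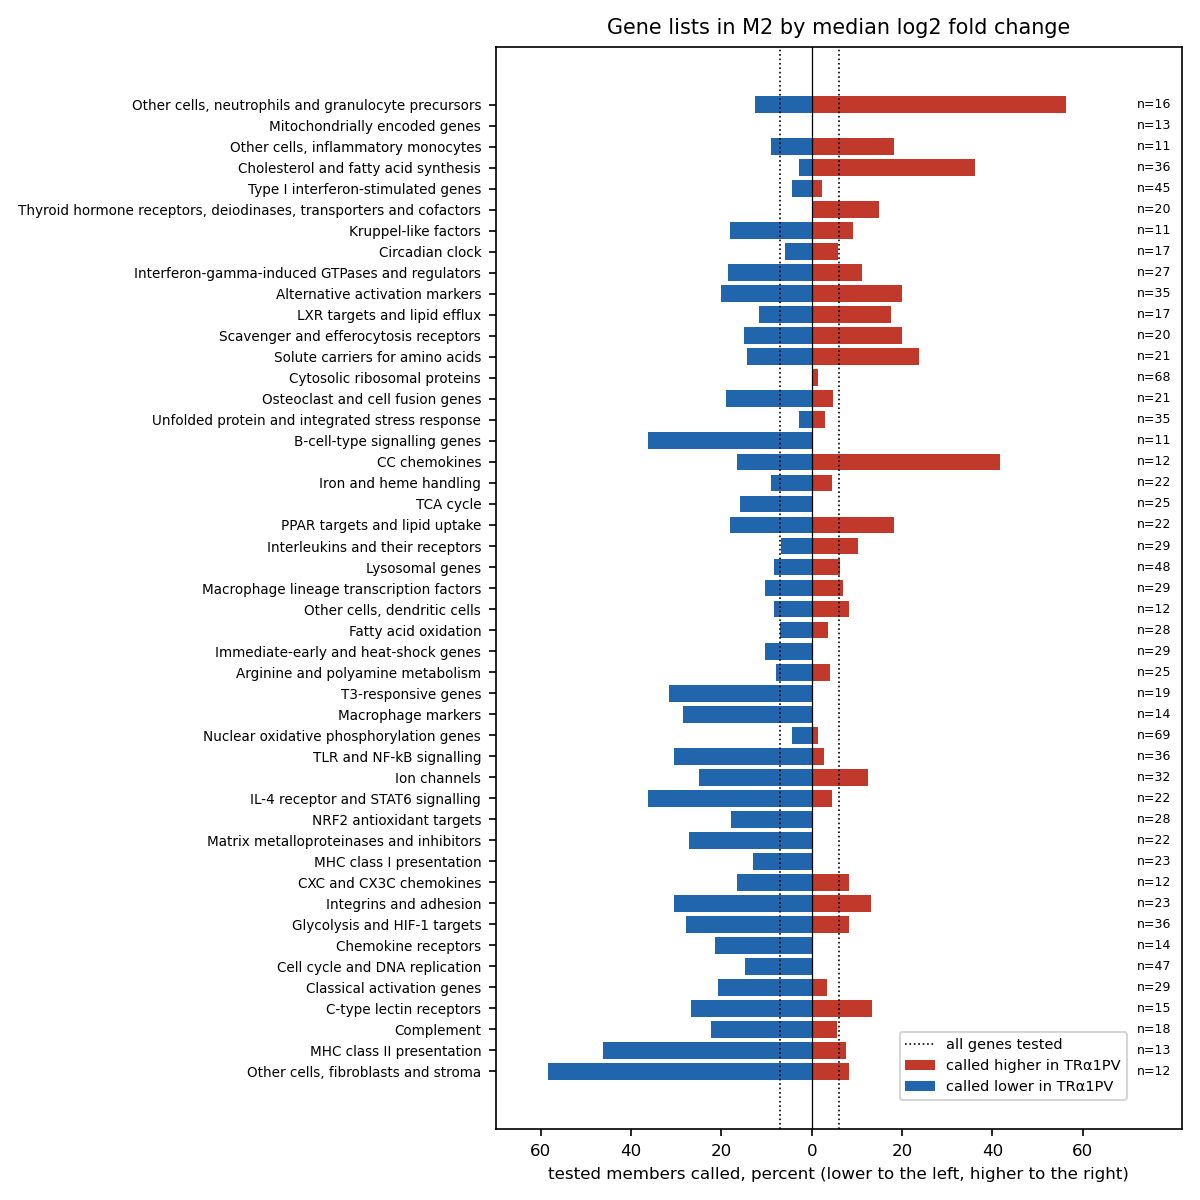
Share of tested members called lower (blue, to the left) or higher (red, to the right) in TRα1PV M2 macrophages for the lists with at least 10 tested members, ordered by their median log2 fold change. Dotted lines mark the shares over all tested genes, 6.96% lower and 6.14% higher; n is the number of tested members, and small lists give coarse shares.

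Sterol synthesis was the list with the largest number of increases. Of 36 tested genes of cholesterol and fatty acid synthesis 13 were higher and 1 lower, with a median log2 fold change of 0.22, and 9 to 14 were higher without single libraries. Hmgcs1, an early enzyme of the mevalonate pathway, had 239, 312, 295, 264 and 259 CPM in TRα1PV and 139, 211, 196, 171 and 179 CPM in WT, without overlap (0.61 ± 0.12, adjusted p = 0.000736). Idi1 (0.69 ± 0.18), Msmo1 (0.50 ± 0.11), Fdft1 (0.36 ± 0.09) and the feedback regulator Insig1 (0.53 ± 0.11) rose with it, as did Elovl6, which lengthens fatty acids (0.67 ± 0.16). WT replicate 1 was the lowest library for Hmgcs1, Idi1, Insig1 and Elovl6. The transcription factors of the pathway, Srebf1 (-0.20 ± 0.13) and Srebf2 (-0.07 ± 0.09), did not pass. In M0 3 of the 36 were higher and 5 lower, where 12% of all tested genes were higher and 14% lower. The difference between M2 and M0 was called for 2 of the 36, against 2.16% of all genes.

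Lipid handling was mixed. Among 22 tested PPAR targets and lipid uptake genes 4 were higher and 4 lower (6.14% and 6.96% of all genes). Fabp4, a fatty acid carrier and PPARγ target, had 209, 266, 245, 231 and 209 CPM against 131, 159, 151, 157 and 152 CPM, without overlap (0.63 ± 0.15, adjusted p = 0.00488). In M0 its effect had the opposite sign (-0.42), and the difference of 1.05 was called (adjusted p = 0.0043). Lpl, lipoprotein lipase, fell from 1024 ± 166 to 554 ± 35.8 CPM (SD, n = 5; -0.89 ± 0.14). Pltp, the phospholipid transfer protein and a target of liver X receptors, had 85.4, 77.2, 73.9, 62.3 and 77.7 CPM against 352, 275, 282, 178 and 220 CPM, a 3.47-fold lower level without overlap (-1.80 ± 0.23, adjusted p = 2.12e-06).

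Glycolytic genes and those that HIF-1 turns on in hypoxia leaned lower. Of 36 tested, 10 were lower and 3 higher, with a median of -0.19, and 10 to 13 were lower without single libraries. With the M2 libraries alone 17 were lower, and 20 with the block in them. Vegfa, the vascular growth factor, had 21.3, 25.2, 25.2, 27.6 and 28.4 CPM against 64, 78.8, 71.3, 96.5 and 83.7 CPM, without overlap (-1.63 ± 0.14, adjusted p = 4.48e-10). P4ha2, a collagen prolyl hydroxylase (-1.46 ± 0.15), Pfkfb3, which sets the pace of glycolysis (-0.65 ± 0.09), the hexokinase Hk3 (-0.58 ± 0.10), the lactate exporter Slc16a3 (-0.38 ± 0.10) and Pkm, pyruvate kinase (-0.29 ± 0.07), were lower as well, beside Slc2a1. Ndrg1 (0.70 ± 0.10) and Bnip3 (0.45 ± 0.10), which hypoxia also induces, rose. In M0 20 of the 36 were lower and 2 higher (14% and 12% of all genes), with a median of -0.36. The difference between M2 and M0 was called for 0 of the 36. Of 28 antioxidant targets of NRF2, 5 were lower and 0 higher in M2 (8 lower without WT replicate 4, 11 with the M2 libraries alone), with Gpx1, a glutathione peroxidase, at 133 ± 19.4 CPM in TRα1PV against 213 ± 16.8 CPM in WT (SD, n = 5; -0.68 ± 0.11).

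Of 69 nuclear genes of oxidative phosphorylation, 3 were lower and 1 higher, with a median of -0.12. Both shares are below those of all genes (6.96% and 6.14%). With the replicate number as a block 5 were lower, and the count was 1 without TRα1PV replicate 4 or WT replicate 3 and 5 without WT replicate 4. With the M2 libraries alone 13 were lower, and 24 with the block in them. The 13 mitochondrially encoded genes had a median of 0.48, and 0 of them passed edgeR's test at an adjusted p under 0.05, while 4 had an unadjusted p under 0.05. DESeq2 also called 0. Without WT replicate 4, 3 were higher, with the M2 libraries alone 4, and with the block in those libraries 11. Of 68 cytosolic ribosomal proteins 1 was higher and 0 lower, with a median of 0.00.

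**Figure D5:**
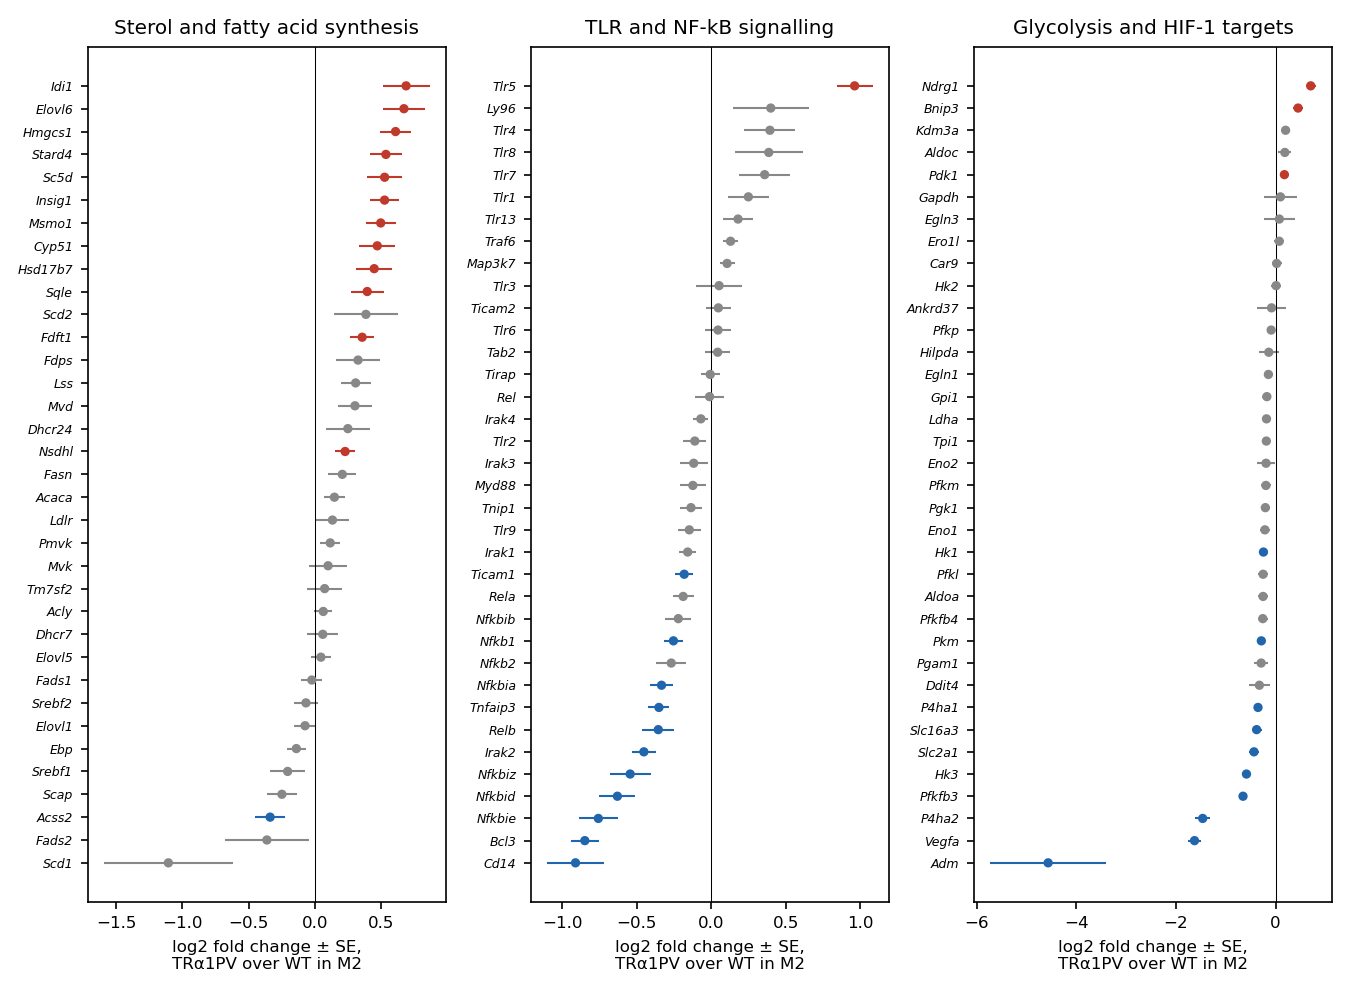
Log2 fold change ± SE in M2 of 35 tested members of the sterol and fatty acid list and of all 36 of each of the other lists, ordered within each list, with genes called higher in red, lower in blue and the others in grey; the panels have different x axes. In the sterol and fatty acid panel 12 of 35 points are red, and in the NF-kB and glycolysis panels 11 and 10 of 36 are blue; the lowest point of the glycolysis panel, Adm, had 0 reads in all 5 TRα1PV libraries, and its fitted value is no bound.

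Markers of other cells were read beside these results. Of 16 tested markers of neutrophils and granulocyte precursors 9 were higher and 2 lower (14 higher with the block in the M2 libraries alone), with a median log2 fold change of 1.33. S100a8, a calcium-binding protein abundant in neutrophils, had 59.7, 41.4, 36.1, 31.5 and 26.7 CPM in TRα1PV and 20.8, 10.8, 8.44, 8.97 and 5.61 CPM in WT, without overlap (1.83 ± 0.31, adjusted p = 0.000154). Replicate 1 was the highest library of both genotypes. S100a9 (1.57 ± 0.36), the granule proteins Ngp (1.57 ± 0.34), Ltf (1.54 ± 0.41) and Mpo (1.20 ± 0.31), and Ms4a3 (1.70 ± 0.42), a marker of granulocyte and monocyte precursors, rose too. Mmp8 and Csf3r, the receptor for the granulocyte growth factor (-0.85 ± 0.09), which are on the same list, fell. The summed level of the list was 275 to 396 CPM in TRα1PV and 344 to 427 CPM in WT, of which Csf3r alone made 155 ± 6.87 and 279 ± 24.3 CPM (SD, n = 5). Fcnb had 0 reads in 1 WT library. In M0 13 of the 16 markers were higher and 2 lower (12% and 14% of all genes), with a median of 1.27. The difference between M2 and M0 was called for 1 of the 16. The part of residual granulocyte precursors in other results was not tested.

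Of 11 tested inflammatory monocyte markers 2 were higher, F13a1 among them, and 1 was lower. Their summed level was 3520.3 to 5755 CPM in TRα1PV and 3161 to 4241 CPM in WT. Of 12 dendritic cell markers 1 was higher and 1 lower (6.14% and 6.96% of all genes), and the summed level was 257 to 318 against 373 to 493 CPM, without overlap. A summed level follows the most abundant members of its list, so it is no count of cells. Of 14 macrophage markers 4 were lower and 0 higher, Cd14, Itgam and Lpl among them. Adgre1, the F4/80 antigen (0.04 ± 0.10), Csf1r (-0.02 ± 0.10), Cd68 (-0.03 ± 0.07), Mertk (-0.14 ± 0.09) and the lysozyme Lyz2 (-0.14 ± 0.10) did not pass.

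The genotype effect in M2 was set beside that in the other states, each measured against its own WT libraries. In M0 4072 genes (26.0%) and in M1 3132 genes (20.0%; 9.74% higher and 10.2% lower) were called, against 2055 (13.1%) in M2. Of the M2 calls 1263 were also called in the same direction in M0, which is 61.5% of the M2 calls and 31.0% of the M0 calls, and 28 were called in the opposite direction. With M1, 414 were shared in direction (20.1% of the M2 calls and 13.2% of the M1 calls) and 167 were opposite. In all 3 states 308 genes were called in the same direction, 110 of them higher and 198 lower, among them Thra, Klf9, Mmp8, Mmp27, Blnk, Cd5l, Vegfa, Ccnd2, Cuedc1, Dbp and F13a1.

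The difference of the effect from that in M0 was called for 339 genes (2.16%), 110 with a higher and 229 with a lower value in M2, and the difference from M1 for 3418 genes (21.8%). Klf9 was among the 3 genes with the smallest p in each. Its level was 1.09 ± 0.213 CPM in TRα1PV M0 and 15.4 ± 1.35 CPM in WT M0 (SD, n = 5), and 0.747 ± 0.173 and 27.5 ± 5.83 CPM (SD, n = 5) in M1, so that its mean was highest in M2 in both genotypes, a difference between states that was not tested. The effect of -2.31 in M2 was 1.51 above that in M0 (adjusted p = 4.9e-05) and 2.88 above that in M1 (adjusted p = 3.0e-10).

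Tagap, a GTPase-activating protein of lymphoid and myeloid cells, was lower in TRα1PV in M2 (-0.81 ± 0.15) and higher in M0 (0.64), a difference of -1.45 (adjusted p = 0.00012). Nid1, a basement membrane protein, differed by 3.98 between the states at levels of about 1 CPM or less. Rin2 had no genotype difference past the test in M1 (0.02, at 103 ± 5.52 CPM in TRα1PV against 101 ± 13.4 CPM in WT, SD, n = 5), and its effect in M2 was 1.82 lower (adjusted p = 3.0e-10). Ighm in M1 had a level of 0.807 ± 0.295 CPM in TRα1PV M1 and 1.13 ± 0.318 CPM in WT M1 (SD, n = 5), so that its effect in M2 was 4.22 below that in M1, while it did not differ from M0 past the test (adjusted p = 0.70). Apobec1, an RNA-editing enzyme, was lower in M2 (-0.57 ± 0.05) with a difference of -0.68 from M1. Of the M2 calls, 582 were called in M2 alone, and for 23 of these both differences were called.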

How the data were processed

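The 30 libraries of polyA RNA were read from tables of raw counts per gene that the authors deposited, and the submitters' processing notes name Trimmomatic 0.39, FastQC 0.11.9, HISAT2 2.2.1, HTSeq 1.99.2, Cufflinks, edgeR, limma, R 4.3.2 and build GRCm39. The annotation release and strand setting are not stated there or in the labels. The 5 rows that name no gene were left out. They held 23.3 to 26.7% of the reads in the M2 libraries.

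With edgeR 4.0.16 (limma 3.58.1, R 4.3.3), genes with low counts were removed (filterByExpr, minimum count 10, minimum total 15), libraries were scaled by TMM, and 1 quasi-likelihood model with a mean for each of the 6 groups was fitted to all 30 libraries (24 residual degrees of freedom). The contrasts were TRα1PV minus WT in M2 and its difference from M0 and from M1, with Benjamini-Hochberg adjustment. The model took the 30 libraries as independent. Replicate numbers recur in each state, so libraries of different states may share a mouse. The main tests of the differences from M0 and M1 did not allow for that. SEs were derived as the fold change (log2) over the root of its F statistic. Depth was 23015952 to 50238693 reads per M2 library. Pairs of replicates differed by more than counting noise, with a chi-square statistic of 6.675 to 57.47 per degree of freedom. Library measures were compared by an exact permutation test (two-sided, 252 arrangements). In simulated data for the M2 comparison (15686 genes), 50 genes were changed at each fold, far fewer than the 2055 called here. Counts were drawn independently for each library, without a replicate effect or an outlying library. The fit recovered 40% of changes of 1.5-fold, 64% of 2-fold, 90% of 4-fold and 92% of 8-fold, and called 9 unchanged genes. Recovery in the real libraries can differ.

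The text names part of the genes given by a rule. It took Thra and Thrb, the 12 largest increases and 12 largest decreases among called genes with a mean log2 CPM of 0 or more and no overlap between genotypes, the 10 smallest p in M2, the 6 smallest p for the difference from M0 and from M1, and up to 4 called members with the smallest p from each list. It also allowed any other list member to be given with its value. There were 55 lists (1192 symbols, of which 18 were replaced by the annotation's name). Among the increases 2 gene models without an established name were passed over. Some items are not reported here by name, and they stay in the counts over lists and genes. The comparison and the lists were chosen with earlier results of these data known. Promoters were in the RefSeq table for 7 of the 10 genes with the smallest p.

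The labels give the replicate number as a batch, so it was taken as a possible pairing. The main fit did not use it, and it entered only in the alternatives with the replicate block. The deviations of same-numbered libraries from their group means correlated at -0.0229 to 0.212 (mean 0.0784), against a mean of -0.0198 for different numbers, and 3 of 5 TRα1PV and 2 of 5 WT libraries correlated best with their own number. Alternatives were RLE size factors, DESeq2 1.42.0, limma-voom, no filter, the replicate block, a covariate for reads outside genes, the M2 libraries alone with and without the block, and leaving out each M2 library.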

Additional observations from a re-analysis of the deposited data

Results flagged for a closer look

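In groups of 5 M2 libraries, the highest or lowest library was set against the rest of its group by Dixon's ratio (95% critical value 0.71). Of 314 groups tested 25 had such a library, and chance alone gives about 1 in 20. WT replicate 1 was the highest of its group, far from the other 4, for Lpl at 1320 CPM, Gpx1 at 242 CPM, S100a9 at 36.8 CPM, Ltf at 8.5 CPM, Mpo at 7.01 CPM, Ms4a3 at 0.828 CPM and Scn3a at 241 CPM. WT replicate 1 was the lowest of its group, far from the other 4, for Rxra at 94 CPM. 1 TRα1PV library was the highest of its group, far from the other 4, for Ly6e at 84.2 CPM (replicate 4), Matk at 45.1 CPM (replicate 1), Il4ra at 169 CPM (replicate 5), Nfkbia at 55 CPM (replicate 2), Itgax at 245 CPM (replicate 1), Axl at 18.5 CPM (replicate 4), Csf3r at 167 CPM (replicate 5) and Mertk at 150 CPM (replicate 5). 1 TRα1PV library was the lowest of its group, far from the other 4, for Traf3ip2 at 1.6 CPM (replicate 2), Stab2 at 57.7 CPM (replicate 4) and Maf at 409 CPM (replicate 1). 1 other WT library was the highest of its group, far from the other 4, for Ncor1 at 226 CPM (replicate 4) and Nid1 at 0.813 CPM (replicate 2). 1 other WT library was the lowest of its group, far from the other 4, for Slc7a8 at 73.4 CPM (replicate 4). WT replicate 3 had the lowest depth of its group (23.016 M reads), and WT replicate 4 the highest share of reads outside genes (26.7%) and in no feature (10.8%).

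The genotype effect in M2 differed from that in M0 for 22 named genes, by the test of the difference in edgeR's quasi-likelihood fit at an adjusted p under 0.05; the values are the log2 fold change in M2 minus that in M0. The effect in M2 lay above that in M0 for Nid1 (3.98), Klf9 (1.51), Mmp8 (1.24), Mmp27 (1.11), Fabp4 (1.05), Cish (0.97), Fasn (0.72), Kdm6b (0.61) and Cd68 (0.40). The effect in M2 lay below that in M0 for Mx1 (-1.86), Tagap (-1.45), Ifi47 (-1.40), Isg15 (-1.37), Acod1 (-1.19), Irf7 (-1.08), Ly6e (-1.01), Axl (-0.80) and Itgam (-0.77). Smaller differences of this sign were those of Mgl2 (-0.75), Nfkbiz (-0.73), Clec12a (-0.59) and Cxcl16 (-0.44).

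The genotype effect in M2 differed from that in M1 for 63 named genes, by the test of the difference in edgeR's quasi-likelihood fit at an adjusted p under 0.05; the values are the log2 fold change in M2 minus that in M1. The effect in M2 lay above that in M1 for Klf9 (2.88), Mgll (2.18), S100a8 (1.63), Spata13 (1.22), Nid1 (1.09), Ciita (1.04), Idi1 (1.03), Ccl12 (0.95) and Slc7a2 (0.87). Smaller differences of this sign were those of Elovl6 (0.87), Cd86 (0.87), Msmo1 (0.69), Ccl6 (0.68), Hmgcs1 (0.62), Insig1 (0.55), Bach1 (0.47) and Bnip3 (0.46). Thra had the smallest (0.43). The effect in M2 lay below that in M1 for Adm (-4.63, a fitted value with 0 reads in TRα1PV M2), Ighm (-4.22), Asb4 (-2.82), Pltp (-2.24), Socs3 (-1.94), Hr (-1.89), Rin2 (-1.82), Ly6e (-1.71), Fgr (-1.57) and Cxcl14 (-1.23). Smaller differences of this sign were those of Bcl3 (-1.17), Matk (-1.13), Traf3ip2 (-1.08), Cd72 (-1.05), Itgam (-1.02), Prkce (-0.96), Tgm2 (-0.93), Arg1 (-0.91) and Ccnd2 (-0.83). Next in size were Il4ra (-0.82), Axl (-0.79), P4ha2 (-0.78), Cuedc1 (-0.73), Hk3 (-0.72), Apobec1 (-0.68), E2f2 (-0.63), Icam1 (-0.61) and Slc16a3 (-0.61). These were followed by Ppard (-0.59), Slc43a2 (-0.59), Cxcl16 (-0.58), Cfp (-0.57), Vegfa (-0.57), Nfkbid (-0.55), Csf3r (-0.55), Clec12a (-0.54) and Slc2a1 (-0.54). Further down were Rara (-0.52), Gpx1 (-0.52), Pkm (-0.42), Rxra (-0.39), Pfkfb3 (-0.35), Nfkbia (-0.31), Syk (-0.29) and Stat6 (-0.26). Some of these genes were near the floor in M1, where their effect is poorly measured. Mean M1 levels in TRα1PV and WT were 0.185 and 0.297 CPM for Mgll and 0.117 and 0.247 CPM for Hr. They were 0.384 and 0.264 CPM for Matk and 0.109 and 0.378 CPM for Asb4.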

How the results depend on the processing

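Of the 128 named genes called in M2, 127 kept their call and direction under all 18 alternatives (Adm under the 16 that tested it), and Mrc1 lost its call as described. Over all genes 988 of the 2055 calls (48.1%) held in all 18. The count of called genes was 4008 with the M2 libraries alone and 4483 with the replicate block in those libraries (14013 genes tested), 313 at a fold of at least 2, 918 at an adjusted p under 0.01, and 1270 (without WT replicate 5) to 2709 (without WT replicate 4) without single libraries. With the replicate block in all 30 libraries 2017 of the 2055 calls were kept, and no named gene changed its call. The count of genes whose effect differed from M0 was 339, and 525 with DESeq2, 520 with the covariate and 252 to 329 without single libraries. For the difference from M1 the 3418 genes became 2449 to 4116 without single libraries. Without WT replicate 4, 3 library measures passed adjustment by the exact permutation test (adjusted p = 0.0317 each): the difference of TRα1PV minus WT was 1.35 percentage points for reads in no feature (0.764 to 1.35 over the libraries left out), -0.27 for ambiguous reads (-0.27 to -0.21) and 1.22 for mitochondrial reads (0.717 to 1.22).

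Among genes that did not pass, the log2 fold change turned sign without single libraries for Thrb (-0.12 to 0.069), Arg1 (-0.11 to 0.072), Chil3 (-0.12 to 0.072; 0.036 with the covariate), Csf1r (-0.053 to 0.011; 0.032 with the covariate), Mx1 (-0.045 to 0.23), Isg15 (-0.36 to 0.030), Adgre1 (-0.0033 to 0.074) and Cd68 (-0.057 to 0.0020), and for Ncor1 with the covariate (-0.012). Their directions are not resolved at this precision. Dio2, Fasn, Il4ra and Srebf1 passed under some settings (all 4 with the M2 libraries alone and the block). None of the 18 alternatives moved the median log2 fold change of all genes by more than 0.00802. The cause of these changes was not tested.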

Other observations

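Ion channels moved in both directions: of 32 tested, 8 were lower and 4 higher (6.96% and 6.14% of all genes), with a median log2 fold change of -0.12. Scn3a, a voltage-gated sodium channel, was among those that rose, with 404, 414, 411, 388 and 410 CPM in TRα1PV and 241, 180, 172, 174 and 188 CPM in WT. The groups did not overlap (1.08 ± 0.14, adjusted p = 3.38e-06 by edgeR's quasi-likelihood test). In M0 and M1 it was rare in both genotypes (TRα1PV means of 0.185 and 0.293 CPM, WT means of 0.258 and 0.215 CPM), and its log2 fold changes of -0.48 and 0.45 there did not pass the test, nor did the differences of M2 from either state. Kcnq1, a potassium channel, fell by 2.16 (SE 0.37), from 1.03 ± 0.123 to 0.238 ± 0.123 CPM (SD, n = 5), and Hvcn1, the proton channel, rose by 0.39 (SE 0.10). Of 21 tested amino acid transporters 5 were higher and 3 lower (1 lower without TRα1PV replicate 3). Slc1a4 rose by 0.80 (SE 0.17), and Slc43a2, a carrier of large neutral amino acids, fell from 850 ± 49 to 473 ± 40.4 CPM (SD, n = 5; -0.85 ± 0.08).

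Among transcription factors Maf, which restrains inflammatory genes and supports interleukin-10, had 409, 525, 533, 508 and 547 CPM against 299, 318, 306, 382 and 278 CPM, without overlap (0.67 ± 0.14, adjusted p = 0.00141 by edgeR's quasi-likelihood test). Klf13 fell by 0.65 (SE 0.08) with Klf9, and Bach1, a repressor of heme oxygenase, rose by 0.51 (SE 0.06). Along the chromosome, 8 of the 40 tested genes nearest to Thra (20 on each side, in RefSeq order, build GRCm38.p6) were called, which is 20.0% against 13.1% of all genes, and 25 of the nearest 200 (12.5%). Of those 8, Rapgefl1 was the one that was higher (1.38 ± 0.30, at a mean of 0.577 CPM in TRα1PV), and Rara, the retinoic acid receptor gene, was among the 7 that were lower (-0.57 ± 0.09). These 2 neighbours were chosen after their values were seen.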
